A study of Mus musculus with 36 samples.

Results

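The 10 genes described here encode the transcription factor NRF2 (*Nfe2l2*) and 9 enzymes of antioxidant defence or NADPH supply: *Gclc*, *Gclm*, *Srxn1*, *Txnrd1*, *Gpx1*, *Nqo1*, *Hmox1*, *G6pdx* and *Pgd*. They were chosen by gene symbol from the 38283 genes of the deposited count table, and all 10 had 1 row each and passed the filter on low counts. Their transcripts were measured by RNA sequencing in the livers of 36 male mice aged 16 weeks, kept on chow on a C57Bl/6J background. Wild-type mice were compared with mice heterozygous for the Y657* truncation of *Pik3r1* (WT/Y657*), which encodes the regulatory subunits of the insulin signalling enzyme PI3K and models SHORT syndrome, an insulin-resistant human disorder. Each genotype had 6 mice fed ad libitum, 6 mice after a 16 h fast, and 6 mice given chow again for 6 h at the end of such a fast. The mutation is carried in every cell from 1 targeted allele, introduced with a LoxP-flanked neomycin resistance cassette, and the study calls its wild-type controls littermates.

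NRF2 is made continuously and is normally marked for degradation by KEAP1, which joins it to the CUL3 and RBX1 ubiquitin ligase. Electrophiles and oxidants modify KEAP1, after which NRF2 accumulates and, with small MAF proteins, binds antioxidant response elements near genes for glutathione synthesis, thioredoxin and quinone reduction, and heme breakdown. Many of these enzymes use NADPH, which the pentose phosphate pathway supplies and which hepatocytes also spend on making fatty acids. NRF2 is controlled mainly as a protein, and only its transcript was measured here.

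In the GENCODE M21 annotation of GRCm38, *Nfe2l2* spans chromosome 2 positions 75675513 to 75704641 (minus strand) and *Pgd* chromosome 4 positions 149149991 to 149166771 (minus strand). *Gclm* spans chromosome 3 positions 122245557 to 122270732 (plus strand), *Txnrd1* chromosome 10 positions 82833951 to 82897712 (plus strand) and *G6pdx* chromosome X positions 74409483 to 74429194 (minus strand). *Gclc* lies at chromosome 9 positions 77754535 to 77794485, *Gpx1* at chromosome 9 positions 108338903 to 108340343, *Hmox1* at chromosome 8 positions 75093621 to 75100589 and *Srxn1* at chromosome 2 positions 152105516 to 152111376, each on the plus strand, and *Nqo1* at chromosome 8 positions 107388225 to 107403206 on the minus strand. The core letters of the antioxidant response element, TGACNNNGC, were searched on both strands in RefSeq promoter windows (GRCm38.p6) that run from 250 bases before to 50 bases after a start site. Of these windows, 12.4% of 32851 held the letters. Windows were found for 8 of the 10 genes (11 windows), with no entry for *Gclc* or *Hmox1*. The letters stood in 6 of the 11 windows, 1 each for *Nfe2l2*, *Gclm*, *Srxn1*, *Txnrd1*, *G6pdx* and *Pgd*, and in none for *Nqo1* or *Gpx1*. The 250 bases before the start are printed for the 4 genes in which they lay before it, 5′ to 3′ on the gene's strand, with the match in capitals. It began 240 bases before the start of *Nfe2l2* (chr2:75704664-75704913, minus strand), 134 bases before that of *Gclm* (chr3:122245307-122245556, plus strand), 92 bases before that of *Txnrd1* (chr10:82858956-82859205, plus strand) and 57 bases before that of *G6pdx* (chrX:74428881-74429130, minus strand). A match of these letters describes the sequence only. Sites outside these windows or with other letters were not searched, so a window without a match does not show that a gene lacks the element.
Nfe2l2: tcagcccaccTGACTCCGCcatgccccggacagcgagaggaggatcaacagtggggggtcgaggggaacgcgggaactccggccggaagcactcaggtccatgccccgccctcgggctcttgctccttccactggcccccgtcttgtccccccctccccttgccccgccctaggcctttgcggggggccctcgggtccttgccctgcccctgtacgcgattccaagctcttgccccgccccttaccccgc
Gclm: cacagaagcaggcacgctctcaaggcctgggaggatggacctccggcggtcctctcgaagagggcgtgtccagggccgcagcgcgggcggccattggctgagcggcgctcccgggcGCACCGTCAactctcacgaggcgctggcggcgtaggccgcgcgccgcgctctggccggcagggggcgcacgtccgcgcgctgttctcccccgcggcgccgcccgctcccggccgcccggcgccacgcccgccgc
Txnrd1: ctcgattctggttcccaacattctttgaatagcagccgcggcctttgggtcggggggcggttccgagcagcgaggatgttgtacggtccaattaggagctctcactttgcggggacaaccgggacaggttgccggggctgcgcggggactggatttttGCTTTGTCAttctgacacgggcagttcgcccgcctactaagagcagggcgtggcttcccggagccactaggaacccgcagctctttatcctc
G6pdx: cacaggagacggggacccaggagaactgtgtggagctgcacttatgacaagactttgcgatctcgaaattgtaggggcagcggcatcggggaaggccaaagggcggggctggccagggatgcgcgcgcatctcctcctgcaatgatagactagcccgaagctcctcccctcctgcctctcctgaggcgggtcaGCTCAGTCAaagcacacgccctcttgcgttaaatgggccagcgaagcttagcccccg

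Libraries held 8839488 to 19542775 counts in total, and values are given in CPM, counts scaled to a common library total with TMM factors, which set most genes level between libraries. Of the 10 transcripts, *G6pdx* (39 to 139 counts a library) and *Nqo1* (38 to 207) rested on the fewest counts, and *Gpx1* on the most (11664 to 28937). Hepatocyte markers summed to between 44953 and 93221 CPM in every library, and Kupffer cell markers to between 290 and 1035. In whole liver, fewer cells of a type and less RNA per cell cannot be told apart. Mouse numbers fell into series that bear on the comparisons. Numbers of the fasted and of the refed group formed a lower and a higher series, 3 mice of each genotype in each, whereas fed mice came from neither, so that feeding state and series cannot be told apart for fed mice. Among fed mice, only a stretch of 5 mice mixed the genotypes, with 2 wild-type and 3 WT/Y657* animals (called the shared stretch here), while the 4 wild-type mice before it and the 3 WT/Y657* mice after it had no counterpart. Mice of a group are called 1 to 6 in ascending order of their number. The labels do not say which mice shared a litter or cage. Per the study, tissue was taken before the overnight fast, after it, or after refeeding. Time of collection and feeding state thus cannot be told apart in any comparison of states, and words such as fasting and refeeding name the groups compared.

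Divided by exon length (RPKM, CPM per kilobase), the mean level over all 36 mice was highest for *Gpx1* at 977, followed by *Gclc* at 86.4, *Gclm* at 33.4, *Txnrd1* at 23.9 and *Srxn1* at 20.7. *Nfe2l2* stood at 17.5, *Hmox1* at 12.2, *Nqo1* at 5.07, *Pgd* at 3.32 and *G6pdx* at 2.11. The ratio of the highest to the lowest mouse was widest for *Hmox1* (5.36), *Pgd* (4.35) and *Nqo1* (4.08) and narrowest for *Txnrd1* (1.61), *Gclm* (1.75) and *Gpx1* (1.82). The 3 enzymes with wide ranges thus had low levels per length, while *Gpx1*, glutathione peroxidase 1, combined the highest level with a narrow range.

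**Figure D1:**
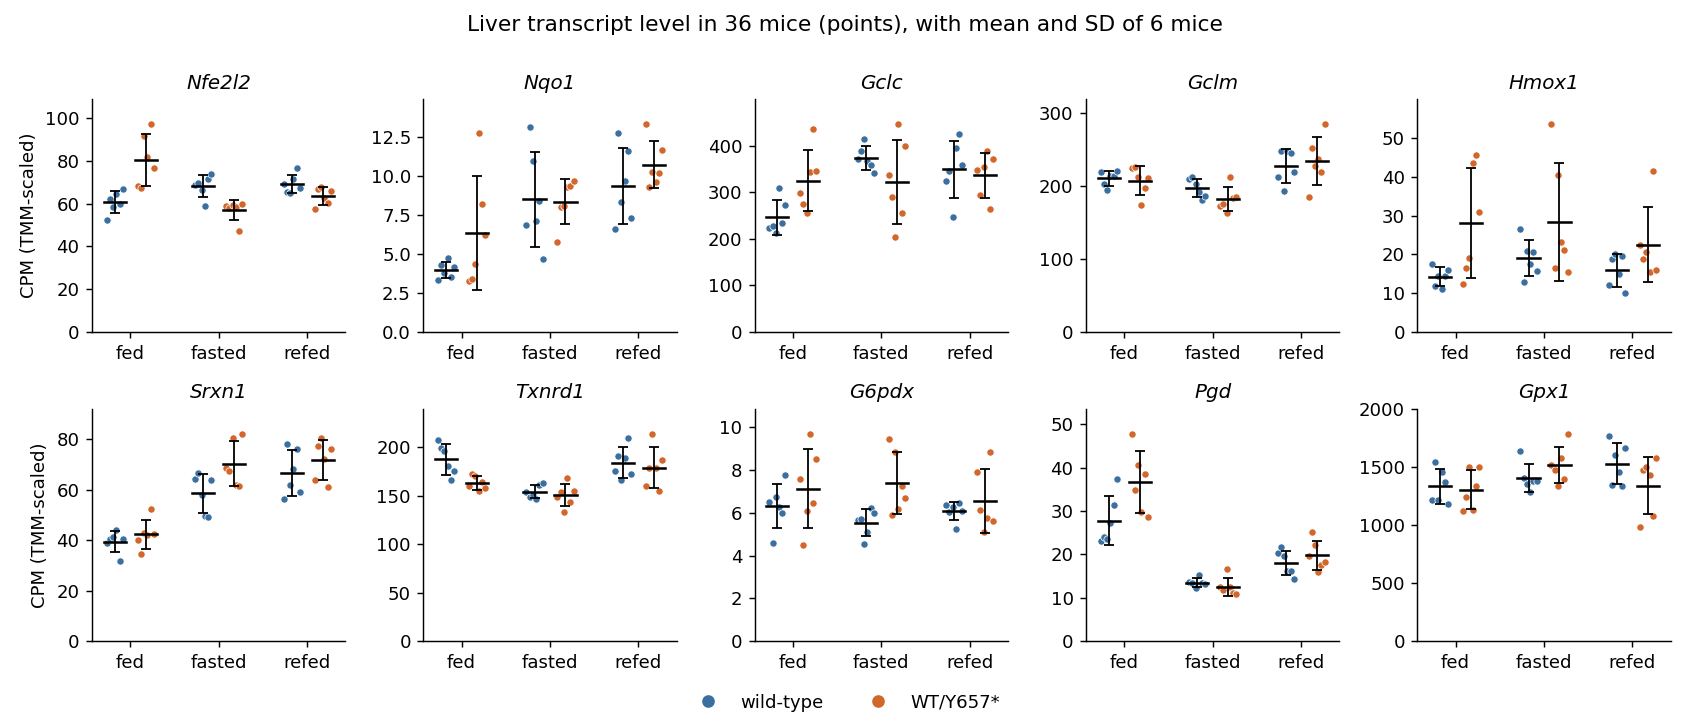
CPM (vertical axis, from 0, TMM-scaled) of the 10 transcripts in each mouse, by feeding state and genotype; bars give the mean and SD of 6 mice. Fed WT/Y657* mice lie above fed wild-type mice for Nfe2l2, and Pgd is lower in fasted than in fed mice of both genotypes.

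The design asks how genotype acts in each state, how fasting and refeeding act in each genotype, and whether those responses differ by genotype. All 36 libraries entered 1 edgeR quasi-likelihood fit over 13945 genes, with Benjamini-Hochberg adjustment over that full set, and a gene was called at an adjusted p under 0.05. Between genotypes, 1 of the 10 transcripts was called in fed mice (2.37% of all genes tested, or 0.483% without fed WT/Y657* mouse 5 and 6.35% without mouse 2) and 1 in fasted mice (13.1%), *Nfe2l2* in both. In refed mice edgeR called none of the 10 (0.0287% of all genes). None of the 10 had an unadjusted p under 0.05 there (1329 of all genes), and DESeq2 and limma-voom also called none (25 and 3 of all genes). Fasting changed 5 transcripts in wild-type mice (32% of all genes) and 3 in WT/Y657* mice (32.9%). Fed and fasted values did not overlap for 4 transcripts in wild-type (17.6% of all genes) and 3 in WT/Y657* animals (11.5%). Refeeding changed 3 in wild-type (30.2%) and 3 in WT/Y657* animals (31.3%), with no overlap for 1 in wild-type mice (16.9%). Refed mice differed from fed mice in 4 transcripts in wild-type (27.5%) and 4 in WT/Y657* animals (26.1%), of which 3 (14% of all genes) and 2 (9.11%) did not overlap. The fasting response differed by genotype for 1 transcript (4.35% of all genes). The refeeding response differed for none of the 10 by edgeR (2.06%), by DESeq2 (430 of all genes) or at an unadjusted p under 0.05 (2163 of all genes). The shares of the 10 called under fasting and refeeding therefore lay near those of all genes. These comparisons share groups, so their counts are not independent of one another.

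Median log2 fold changes over the 10 were 0.29 for genotype in fed mice, -0.03 in fasted mice and 0.07 in refed mice, against 0.01, 0.00 and 0.01 over all genes. For fasting they were 0.12 in wild-type and 0.00 in WT/Y657* animals, and for refeeding 0.13 and 0.11, against medians over all genes between -0.01 and 0.01. In each fasting comparison, transcripts of the set moved in both directions, while all transcripts called on refeeding rose.

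**Figure D2:**
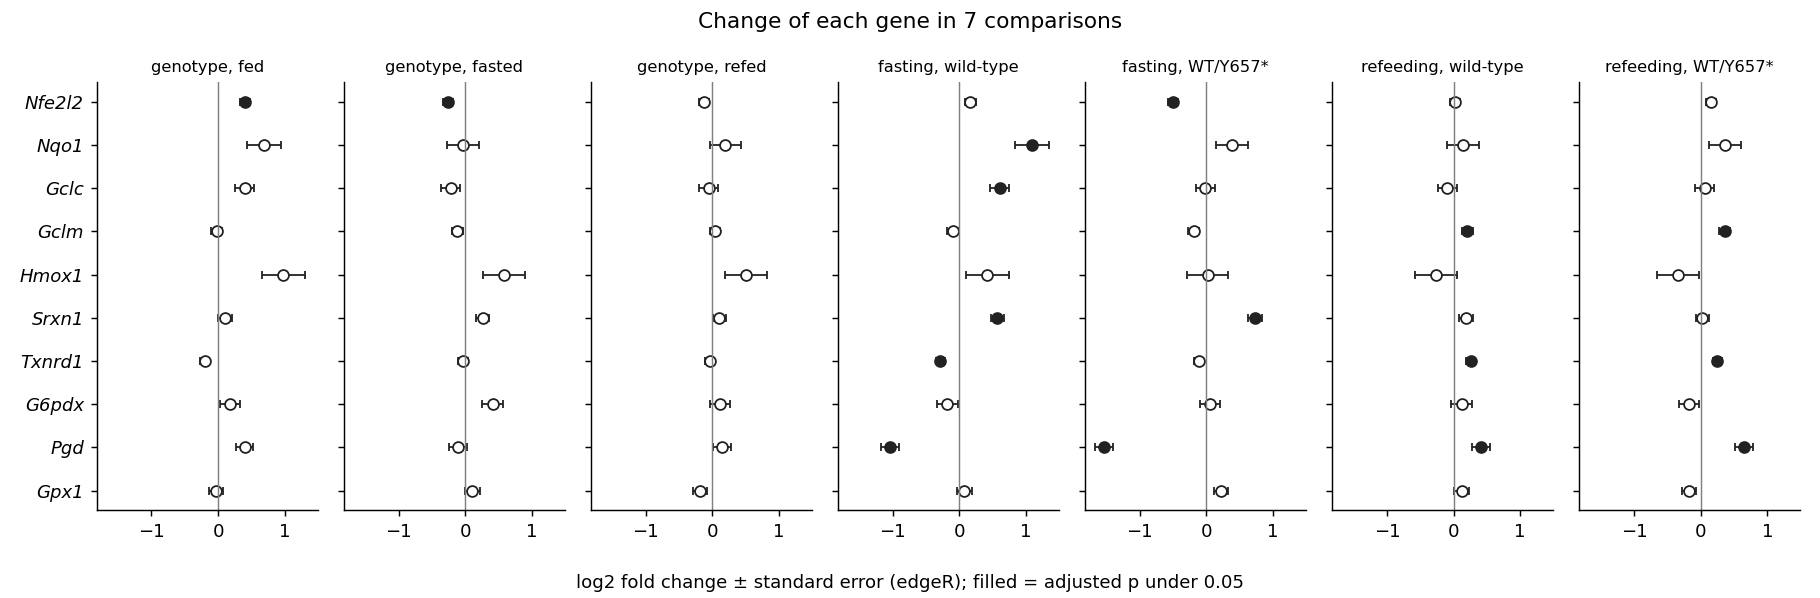
log2 fold change (horizontal axis) with its standard error from edgeR for each of the 10 genes in 7 comparisons, filled where the adjusted p was under 0.05. Genotype comparisons are WT/Y657* against wild-type, fasting is fasted against fed, and refeeding is refed against fasted. Nfe2l2 is to the right of 0 in fed mice and to the left in fasted mice.

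*Nfe2l2* was the only one of the 10 called between genotypes, and its direction was opposite in fed and fasted mice. In fed wild-type mice it ran from 52.2 to 66.9 CPM with a median of 61.1, and in fed WT/Y657* mice from 67.5 to 97.0 with a median of 79.2. Every fed WT/Y657* mouse was above every fed wild-type mouse, a separation found in 1 of the 10 transcripts and in 1.07% of all genes. The log2 fold change was 0.41 (standard error 0.08, edgeR adjusted p = 0.00427). Within the shared stretch, the 2 wild-type mice were at 60.0 to 66.9 CPM and the 3 WT/Y657* mice at 67.5 to 91.4, and the fit to these 5 mice gave a log2 fold change of 0.26 without a call (edgeR adjusted p = 0.997). The call was also lost when only fed libraries were fitted (log2 0.40, edgeR adjusted p = 0.0843). It was kept in that fit with a term for the shared stretch against all other fed mice (0.405, edgeR adjusted p = 0.0392). That term does not part the wild-type mice before the stretch from the WT/Y657* mice after it, so genotype and number cannot be told apart there. Kupffer cell markers were also lowest in the fed WT/Y657* mice with the lowest *Nfe2l2*. In fed WT/Y657* mice 1 and 2, at 68.1 and 67.5 CPM, the summed level of 11 Kupffer cell markers was 290 and 303 CPM, below the wild-type range of 308 to 450. The other 4, at 76.5 to 97.0 CPM, had sums of 639 to 1035. The summed level of 6 stellate cell markers was 276 to 394 CPM in fed wild-type and 393 to 551 in fed WT/Y657* animals. Within the latter it did not follow *Nfe2l2*, at 450 and 446 CPM in mice 1 and 2 and 393, 551, 401 and 403 in mice 3 to 6. The part of these cells in the *Nfe2l2* values was not tested.

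After the fast the order was reversed. *Nfe2l2* ran from 58.8 to 73.9 CPM with a median of 69.2 in wild-type mice, and from 47.4 to 59.8 with a median of 58.5 in WT/Y657* mice. The groups overlapped through 1 wild-type mouse, and 4 of 6 WT/Y657* mice were below every wild-type mouse. *Nfe2l2* was lower in WT/Y657* mice by a log2 fold change of -0.26 (standard error 0.08, edgeR adjusted p = 0.0228). Means in the lower series were 68.2 ± 1.75 CPM in wild-type and 58.7 ± 0.882 in WT/Y657* animals (SD, n = 3 each), and in the higher series 68.0 ± 8.05 and 55.1 ± 6.77 (SD, n = 3 each). The direction was thus shared by both series. The call was lost without wild-type mouse 5, wild-type mouse 6 or WT/Y657* mouse 5 (edgeR adjusted p = 0.0512, 0.0555 and 0.0668) and with scaling by library size alone (edgeR adjusted p = 0.107).

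From fed to fasted, *Nfe2l2* fell in WT/Y657* mice, with every fasted mouse below every fed mouse (log2 -0.50, standard error 0.08, edgeR adjusted p = 3.9e-06). In wild-type mice the same comparison gave a log2 fold change of 0.17, which did not pass (edgeR adjusted p = 0.102). The difference between these responses was itself called, at a log2 of -0.665 (standard error 0.11, edgeR adjusted p = 0.00066). It stayed so in all 24 fits that left out 1 mouse and in 9 fits with another scaling, test, filter or sample choice (log2 -0.724 to -0.604). None of these fits had a term for mouse number or was limited to the shared stretch, where the fed genotype difference was not called (log2 0.26). The limit on the fed comparison thus holds here too. After refeeding, *Nfe2l2* was at 69.1 ± 4.35 CPM in wild-type and 63.5 ± 4.12 in WT/Y657* animals (SD, n = 6 each), a difference that did not pass (edgeR adjusted p = 0.629). The refed WT/Y657* level remained below that of fed WT/Y657* mice (log2 -0.34, edgeR adjusted p = 0.00104).

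**Figure D3:**
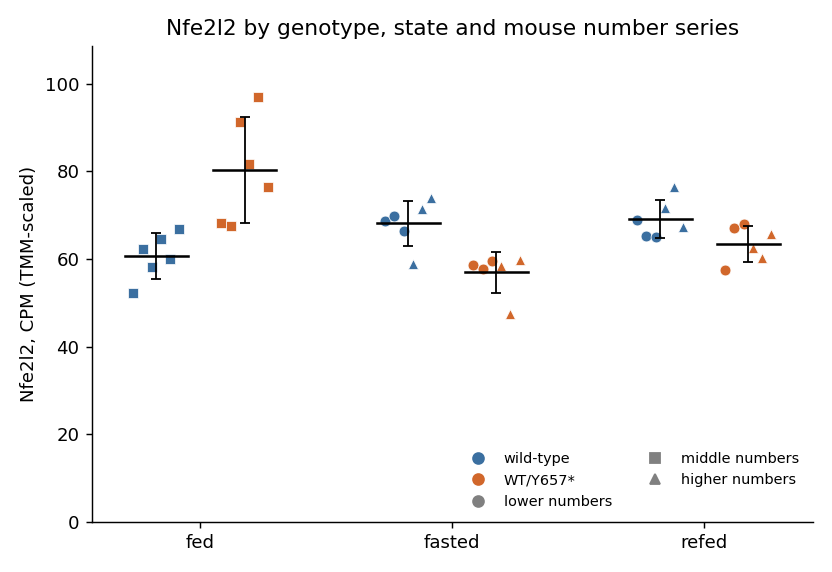
Nfe2l2 in CPM (vertical axis, from 0, TMM-scaled) for each mouse by feeding state, coloured by genotype and shaped by mouse number series (the fed mice form the middle series); bars give the mean and SD of 6 mice. WT/Y657* mice sit at 67.5 to 97.0 when fed and at 47.4 to 59.8 when fasted.

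Of 10 tested genes for partners and regulators of NRF2, edgeR called 3 between genotypes in fasted mice (1 higher and 2 lower, against 13.1% of all genes). It called none of them in fed or refed mice (2.37% and 0.0287% of all genes), and DESeq2 also called none. Between genotypes in fed and refed mice, 1 and 2 had an unadjusted p under 0.05, against 2423 and 1329 of all 13945 genes. *Keap1*, the sensor that marks NRF2 for degradation, after the fast was lower in WT/Y657* animals at 45.7 ± 3.49 CPM than in wild-type mice at 55.3 ± 2.27 (SD, n = 6 each; log2 -0.28, edgeR adjusted p = 0.00264). *Rbx1*, the ring subunit of the ligase, was higher (30.8 ± 1.96 against 24.8 ± 1.5 CPM, log2 0.31, edgeR adjusted p = 0.00233). *Nfe2l1*, a related factor that drives proteasome genes, was lower (145 ± 17.8 against 186 ± 11.1 CPM, log2 -0.36, edgeR adjusted p = 0.00149). Its level rose on fasting by a log2 of 0.72 in wild-type animals (edgeR adjusted p = 1.3e-09) and by 0.45 in WT/Y657* animals (edgeR adjusted p = 1.1e-05). *Sqstm1*, whose protein p62 binds KEAP1, rose on fasting in wild-type mice (log2 0.44, edgeR adjusted p = 1.3e-05), and its fasting response differed by genotype (-0.39, edgeR adjusted p = 0.0273), as did that of *Keap1* (-0.30, edgeR adjusted p = 0.0394).

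Glutamate-cysteine ligase makes the first committed step of glutathione synthesis, with *Gclc* encoding the catalytic and *Gclm* the modifier subunit. The subunits differed in response. *Gclc* ran from 212 to 309 CPM (median 231) in fed wild-type mice and from 340 to 414 (median 370) in fasted wild-type mice. These ranges did not overlap, and *Gclc* rose by a log2 of 0.60 (standard error 0.15, edgeR adjusted p = 0.00142). Fed WT/Y657* mice were at 255 to 435 CPM (median 321), a log2 difference of 0.40 from fed wild-type mice that did not pass (edgeR adjusted p = 0.122), and fasted ones at 203 to 446 (median 313), a log2 of -0.015 that did not pass (edgeR adjusted p = 0.950). The difference in fasting response was -0.62 on the log2 scale, with a 95% interval of -1.02 to -0.22, and did not pass (edgeR adjusted p = 0.0759). Among fed WT/Y657* mice, those of the shared stretch were at 255 to 298 CPM, overlapping the wild-type mice there at 234 to 272, and the other 3 were at 343 to 435. Refed wild-type mice kept a level above fed ones (log2 0.51, edgeR adjusted p = 0.00796).

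*Gclm* was steadier. It ran from 181 to 212 CPM (median 197) in fasted and from 193 to 249 (median 232) in refed wild-type mice, and from 163 to 212 (median 180) in fasted and 186 to 285 (median 232) in refed WT/Y657* mice. In each genotype 5 of 6 refed mice were above every fasted mouse. *Gclm* rose on refeeding in WT/Y657* mice (log2 0.36, standard error 0.08, edgeR adjusted p = 0.00066) and in wild-type mice (0.21, standard error 0.08, edgeR adjusted p = 0.0491). The wild-type call was lost in 6 of the 10 fits with another scaling, test, filter, sample choice or term and in 8 of the 12 fits that left out 1 mouse. The annotation places the pseudogene *Gm6061* on the same strand within *Gclm*, so that reads shared with it could not be assigned with certainty.

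*Srxn1*, sulfiredoxin, restores overoxidised peroxiredoxins with ATP. It ran from 31.8 to 44.2 CPM (median 40.5) in fed and 49.4 to 66.9 (median 60.9) in fasted wild-type mice, and from 34.4 to 52.4 (median 42.4) in fed and 61.4 to 82.3 (median 68.1) in fasted WT/Y657* mice. Fed and fasted mice did not overlap in either genotype. *Srxn1* rose on fasting in wild-type animals (log2 0.57, standard error 0.10, edgeR adjusted p = 3e-05) and in mutants (0.73, standard error 0.10, edgeR adjusted p = 4.3e-07), with no called difference between the responses (0.16, 95% interval -0.12 to 0.44, edgeR adjusted p = 0.572). It stayed above the fed level after 6 h of refeeding, by a log2 of 0.755 in wild-type and 0.757 in WT/Y657* animals (edgeR adjusted p = 7.8e-07 and 5.3e-07). In fasted mice, 4 of 6 WT/Y657* values were above every wild-type value, and the genotype difference of 0.26 did not pass (edgeR adjusted p = 0.0742).

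*Txnrd1*, cytosolic thioredoxin reductase, uses NADPH to reduce thioredoxin and is a selenoprotein. It moved opposite to *Srxn1* on fasting in wild-type mice, from 166 to 207 CPM (median 188) when fed to 147 to 163 (median 152) when fasted. No fasted wild-type mouse reached the lowest fed one, and *Txnrd1* fell by 0.28 on the log2 scale (standard error 0.07, edgeR adjusted p = 0.00183). Fed WT/Y657* mice were at 154 to 173 CPM (median 162), and their change on fasting was -0.12 (edgeR adjusted p = 0.21). The fed genotype difference of -0.20 did not pass (edgeR adjusted p = 0.111), nor did the difference in fasting response (0.17, 95% interval -0.03 to 0.36, edgeR adjusted p = 0.369). On refeeding *Txnrd1* rose in wild-type mice to 166 to 209 CPM, above every fasted mouse (log2 0.26, standard error 0.07, edgeR adjusted p = 0.00492), and in WT/Y657* mice to 155 to 214 CPM (0.25, edgeR adjusted p = 0.00582). *Eid3* lies within *Txnrd1* on the same strand.

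*Gpx1* encodes an abundant selenium-dependent peroxidase that spends glutathione. Its group means lay between 1308 ± 169 CPM in fed WT/Y657* mice and 1532 ± 176 in refed wild-type mice (SD, n = 6 each). It was called in none of the 11 comparisons by edgeR. Its unadjusted p was under 0.05 in 1 of them, fasting in WT/Y657* mice (log2 0.22, edgeR adjusted p = 0.119).

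*Nqo1* encodes a quinone reductase that uses NADPH or NADH and is a classical NRF2 target. Fed wild-type mice were at 3.33 to 4.73 CPM (median 3.96), fasted ones at 4.69 to 13.1 (median 7.74) and refed ones at 6.58 to 12.8 (median 9.0). All 6 refed mice and 5 of 6 fasted mice were above every fed mouse. *Nqo1* rose in wild-type mice on fasting (log2 1.09, standard error 0.25, edgeR adjusted p = 0.00102) and was still higher in refed than in fed mice (1.24, standard error 0.25, edgeR adjusted p = 0.00034). This was the largest fold change of the set in a wild-type comparison of feeding states.

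WT/Y657* mice started from a wider range of *Nqo1*, 3.26 to 12.8 CPM (median 5.30) when fed, and were at 5.74 to 9.64 (median 8.68) when fasted. These ranges overlapped, and the fasting change of 0.38 did not pass (edgeR adjusted p = 0.240), although without fed mouse 4 it was 0.694 and passed (edgeR adjusted p = 0.0136). The difference in fasting response between genotypes was -0.71 on the log2 scale and did not pass (edgeR adjusted p = 0.26). The fed range split by mouse number, with the 3 WT/Y657* mice of the shared stretch at 3.26 to 4.35 CPM, against 3.54 to 4.17 in the wild-type mice there, and the other 3 at 6.24 to 12.8. The genotype difference in all fed mice was 0.69 on the log2 scale (standard error 0.26, edgeR adjusted p = 0.132), and in the shared stretch alone it was -0.068 (standard error 0.284). After refeeding, WT/Y657* mice were at 9.29 to 13.3 CPM (median 10.2), higher than when fed (log2 0.74, edgeR adjusted p = 0.0192) although only 1 of the 6 was above every fed mouse. That call was lost without any 1 of the fed WT/Y657* mice 1, 2 and 3 (edgeR adjusted p = 0.0577, 0.0552 and 0.0509).

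*Hmox1*, heme oxygenase 1, opens heme to biliverdin, iron and carbon monoxide, and is abundant in Kupffer cells, the resident macrophages that clear old red cells. It had the widest range of the set and no edgeR call. Fed wild-type mice were at 11.2 to 17.5 CPM (median 14.5) and fed WT/Y657* mice at 12.5 to 45.7 (median 25). Of the latter, 4 of 6 were above every wild-type mouse. The genotype difference was 0.98 on the log2 scale (standard error 0.32) and did not pass (edgeR adjusted p = 0.0853), while it passed by edgeR's likelihood ratio test (adjusted p = 0.0478) and by DESeq2 (adjusted p = 0.0439). Fed WT/Y657* mice of the shared stretch were at 12.5 to 19.1 CPM, against 14.5 to 16 in the wild-type mice there, and the other 3 were at 31 to 45.7. In fasted mice *Hmox1* was at 13 to 26.6 CPM in wild-type and 15.5 to 53.5 in WT/Y657* animals (log2 0.58, edgeR adjusted p = 0.231), and in refed mice at 9.99 to 20.2 and 15.4 to 41.6 (log2 0.51, edgeR adjusted p = 0.630). The lowest WT/Y657* mouse was thus within the wild-type range in each state, and the highest was above it.

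Markers of Kupffer cells were high together with *Hmox1* in some mice but not in others. The 11 markers summed to 308 to 450 CPM in fed wild-type mice and 290 to 1035 in fed WT/Y657* mice. In the latter the sum was 290 to 639 CPM in the shared stretch and 655 to 1035 for the other 3 mice, which also had the higher *Hmox1*, *Nqo1* and *Gclc*. In fasted mice the sums were alike in range, 355 to 647 CPM in wild-type and 365 to 615 in WT/Y657* animals, and in refed mice they were 317 to 699 and 331 to 931. None of the 11 markers was at 0 in any group. Between fed genotypes edgeR called none of the 11 (2.37% of all genes). All 11 had an unadjusted p under 0.05 (2423 of all 13945 genes), and DESeq2 called 3 (644 of all genes). Between fasted and between refed genotypes neither tool called any, and 0 and 1 had an unadjusted p under 0.05 (3805 and 1329 of all genes). The median log2 genotype difference of the 11 was 0.71 when fed, 0.10 after the fast and 0.35 after refeeding. The part of Kupffer cells in the *Hmox1* values was not tested.

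**Figure D4:**
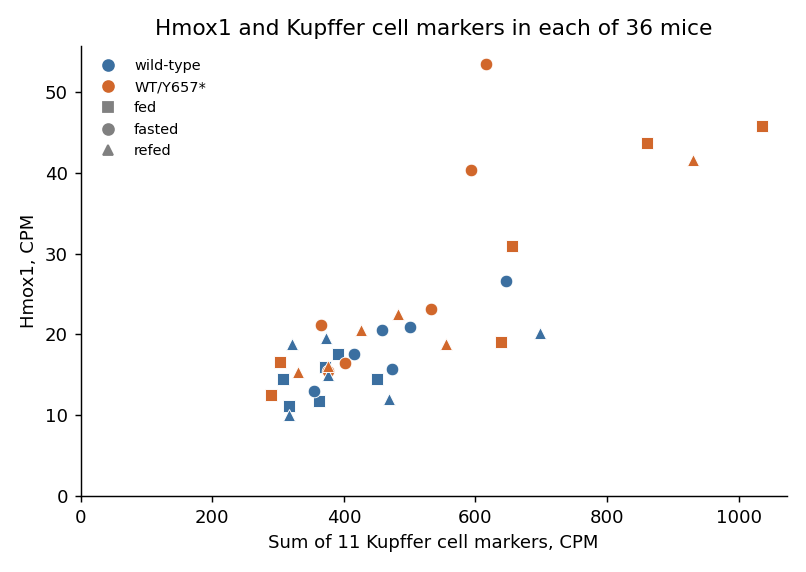
Hmox1 (vertical axis, CPM) against the summed level of 11 Kupffer cell markers (horizontal axis, CPM) in each of the 36 mice, coloured by genotype and shaped by feeding state. Mice with high Hmox1 are WT/Y657* mice of all 3 states, and the fed mouse with the highest sum, 1035, has the highest fed Hmox1, 45.7. The highest Hmox1 of the 36 mice, 53.5 in a fasted WT/Y657* mouse, stands at a sum of 615, and a refed wild-type mouse with a sum of 699 has 20.2.

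Of 6 other genes of heme handling, edgeR called 3 on fasting in wild-type mice (1 higher and 2 lower, against 32% of all genes). It called 2 on fasting in WT/Y657* mice (2 higher, against 32.9%) and 1 between fed genotypes (lower, against 2.37%). *Blvrb*, a biliverdin reductase, rose on fasting in both genotypes (log2 0.45 and 0.38, edgeR adjusted p = 0.0088 and 0.025). *Hp*, the haptoglobin that binds free haemoglobin, was lower in fed WT/Y657* mice at 2342 ± 472 CPM than in fed wild-type mice at 5958 ± 3131 (SD, n = 6 each; log2 -1.35, edgeR adjusted p = 0.0201). On fasting in wild-type mice *Hp* fell (log2 -0.95, edgeR adjusted p = 0.0187), as did *Blvra* (-0.33, edgeR adjusted p = 0.00909). The fasting response of *Hp* differed by genotype (log2 1.54, edgeR adjusted p = 0.0396).

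The oxidative pentose phosphate pathway makes NADPH in a step by *G6pdx*, glucose-6-phosphate dehydrogenase, and another by *Pgd*, 6-phosphogluconate dehydrogenase. *Pgd* differed by feeding state. It ran from 23.1 to 37.3 CPM (median 25.6) in fed wild-type mice, 12.3 to 15.2 (median 13.4) after the fast and 14.4 to 21.6 (median 17.9) after refeeding. All fasted and refed mice were below every fed mouse, and 5 of 6 refed mice were above every fasted mouse. *Pgd* fell on fasting by 1.04 on the log2 scale (standard error 0.13, edgeR adjusted p = 8.3e-08) and rose on refeeding (0.41, standard error 0.13, edgeR adjusted p = 0.0177) without reaching the fed level (refed against fed -0.63, edgeR adjusted p = 0.00031).

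In WT/Y657* mice *Pgd* ran from 28.6 to 47.8 CPM (median 36.6) when fed, 11 to 16.6 (median 12.2) when fasted and 16 to 25.2 (median 19) when refed. Again every fasted and refed mouse was below every fed one. It fell by 1.54 on the log2 scale on fasting (standard error 0.13, edgeR adjusted p = 1.6e-11), the largest change of any of the 10 in any comparison, and rose by 0.65 on refeeding (edgeR adjusted p = 0.0002). The fall differed from that of wild-type mice by a log2 of -0.50 (95% interval -0.86 to -0.14), which did not pass (edgeR adjusted p = 0.115). The genotype difference in fed mice was 0.40 (edgeR adjusted p = 0.0742). Within the shared stretch, fed *Pgd* was at 31.3 to 37.3 CPM in wild-type and 34.8 to 47.8 in WT/Y657* animals, and outside it at 23.1 to 27.2 and 28.6 to 38.5. In the refed mice *Pgd* was also higher in the lower than in the higher series, at 20.5 ± 1.06 against 15.5 ± 1.02 CPM in wild-type mice (SD, n = 3 each). The wild-type rise on refeeding was called in the lower series alone (log2 0.64, edgeR adjusted p = 0.00595) but not in the higher (0.16, edgeR adjusted p = 0.428), and it was lost without refed wild-type mouse 2 (0.35, edgeR adjusted p = 0.0565).

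*G6pdx* did not follow *Pgd*. Its group means lay between 5.54 ± 0.620 CPM in fasted wild-type and 7.39 ± 1.45 in fasted WT/Y657* mice (SD, n = 6 each), and it was called in none of the 11 comparisons by edgeR. Fasted wild-type mice ran from 4.54 to 6.22 CPM (median 5.71) and fasted WT/Y657* mice from 5.88 to 9.45 (median 6.99). Of the latter 4 of 6 were above every wild-type mouse, and the log2 difference of 0.41 did not pass (edgeR adjusted p = 0.0743). Its fasting change was -0.18 in wild-type (95% interval -0.49 to 0.13) and 0.05 in WT/Y657* animals (-0.25 to 0.35). *G6pdx* overlaps *Ikbkg* on the opposite strand. The sources used here do not say whether counting used strand, so reads of the 2 genes may not have been told apart.

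Of 13 other tested genes that supply NADPH or run the pentose phosphate pathway, 7 fell and 3 rose on fasting in wild-type mice (32% of all genes called), and 7 changed in WT/Y657* mice, all of them lower (32.9%). Their median log2 change was -0.335 and -0.236, against 0.01 and -0.01 over all genes. *Aldh1l1*, which makes NADPH from a folate, fell in wild-type mice from 1735 ± 239 to 949 ± 152 CPM (SD, n = 6 each; log2 -0.87, edgeR adjusted p = 4e-06). *Tkt*, the transketolase of the non-oxidative branch, fell in WT/Y657* mice from 179 ± 27.5 to 82.0 ± 9.21 CPM (log2 -1.13, edgeR adjusted p = 5.6e-10), and the folate enzyme *Mthfd1* from 309 ± 13.3 to 173 ± 30.9 (-0.83, edgeR adjusted p = 1.1e-09). For *Tkt* and *Mthfd1* the fasting response differed by genotype (log2 -0.55 and -0.60, edgeR adjusted p = 0.0368 and 0.00333), and both were lower in fasted WT/Y657* than in fasted wild-type mice (-0.41 and -0.54, edgeR adjusted p = 0.0135 and 7.7e-05). *Taldo1*, transaldolase, fell in both genotypes (-0.43 and -0.66, edgeR adjusted p = 1.8e-05 and 5.7e-09). On refeeding 3 of the 13 rose and 1 fell in wild-type mice (30.2% of all genes called), and 7 rose and 1 fell in WT/Y657* mice (31.3%). The one that fell was *H6pd*, the hexose-6-phosphate dehydrogenase of the endoplasmic reticulum, in both genotypes (-0.50 and -0.60, edgeR adjusted p = 2.9e-05 and 1.8e-06).

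**Figure D5:**
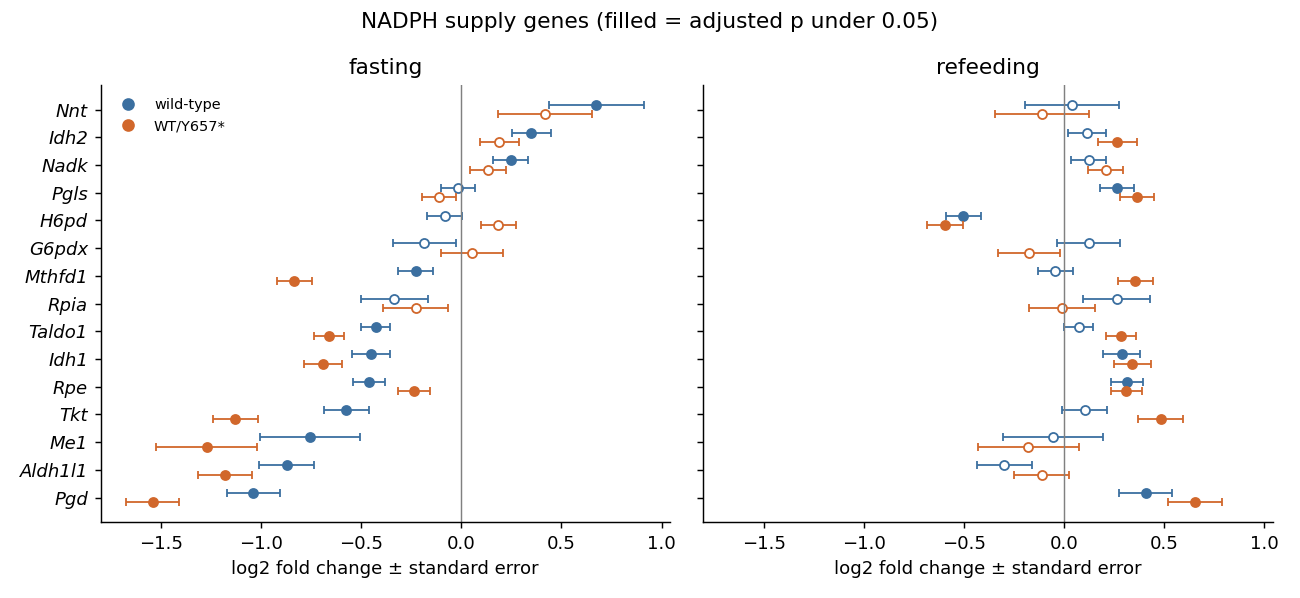
log2 fold change (horizontal axis) with its standard error from edgeR on fasting and on refeeding for Pgd, G6pdx and 13 other genes of NADPH supply, in wild-type and WT/Y657* mice, filled where the adjusted p was under 0.05. Pgd has the largest fall on fasting in both genotypes, at -1.04 and -1.54, while G6pdx is not filled in any panel.

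Beyond the 10, 35 other known NRF2 targets were tested. The lists share genes. *Tkt* and *Taldo1* are also counted with NADPH supply, and *Prdx1* and *Gsr* with glutathione and peroxide handling, so counts of these lists are not independent. Between genotypes edgeR called 1 in fed mice (2.37% of all genes) and 11 in fasted mice (4 higher and 7 lower, against 13.1%). In refed mice it called none (0.0287% of all genes), 6 had an unadjusted p under 0.05 (1329 of all 13945 genes), and DESeq2 called none. On fasting 6 rose and 10 fell in wild-type (32% of all genes called), and 3 rose and 10 fell in WT/Y657* mice (32.9%), with median log2 changes of -0.12 and -0.32. *Abcc3*, an efflux pump for conjugates, rose on fasting in wild-type mice from 210 ± 55.6 to 445 ± 37.1 CPM (SD, n = 6 each; log2 1.09, edgeR adjusted p = 1.7e-05) and after the fast was lower in WT/Y657* animals at 259 ± 71.8 (genotype log2 -0.78, edgeR adjusted p = 0.00395). *Cbr1*, a carbonyl reductase, was higher in fasted WT/Y657* mice (94.3 ± 25.3 against 51.1 ± 5.45 CPM, log2 0.89, edgeR adjusted p = 0.00066), as was the peroxiredoxin *Prdx1* (0.28, edgeR adjusted p = 0.00229). In fed mice the 1 called target was the efflux pump *Abcc4* (6.33 ± 2.12 CPM in WT/Y657* against 3.39 ± 0.825 in wild-type mice, log2 0.90, edgeR adjusted p = 0.0163).

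Of 26 other genes for glutathione, peroxide and thioredoxin handling, 5 were called on fasting in each genotype (3 higher and 2 lower in wild-type, 4 and 1 in WT/Y657* animals), against 32% and 32.9% of all genes. On refeeding 7 rose and 2 fell in wild-type (30.2% of all genes called), and 8 rose and 3 fell in WT/Y657* mice (31.3%). *Gsr*, glutathione reductase, which spends NADPH, rose on refeeding by the same log2 of 0.36 in both genotypes (edgeR adjusted p = 6.3e-05 and 6.2e-05). *Gss*, which completes glutathione synthesis after the ligase of *Gclc* and *Gclm*, rose in WT/Y657* mice (0.50, edgeR adjusted p = 0.00016). Between genotypes in fasted mice, 4 of the 26 were higher and 4 lower (13.1% of all genes), among them *Gpx4*, the peroxidase for membrane lipids (log2 0.37, edgeR adjusted p = 0.00145), and *Cat*, catalase (-0.45, edgeR adjusted p = 0.0034). Of 7 tested genes for selenoprotein synthesis, on which *Gpx1* and *Txnrd1* depend, 3 were called between fasted genotypes (1 higher and 2 lower, against 13.1% of all genes). On refeeding 2 rose in wild-type mice (30.2% of all genes), and 2 rose and 1 fell in WT/Y657* mice (31.3%). The one that fell was *Sepp1*, the selenoprotein that carries selenium in plasma (log2 -0.32, edgeR adjusted p = 0.00318). *Sepsecs*, which makes the selenocysteine transfer RNA, fell on fasting (log2 -0.27 and -0.47 in wild-type and WT/Y657* mice, edgeR adjusted p = 0.00682 and 7.1e-06) and rose on refeeding (0.39 and 0.47, edgeR adjusted p = 0.00013 and 1.1e-05).

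Over the 36 mice, the transcripts most like each of the 10, by Pearson r of log2 CPM, were described without a test, since all 36 values share groups and libraries and were ranked over 13945 genes. *Pgd* was most like *Acly* (r = 0.953) and *Acaca* (r = 0.946), which encode enzymes that make the building blocks of fatty acids. *Srxn1* was most like *Ehhadh*, a peroxisomal beta-oxidation enzyme (r = 0.892), and *Tor1a* (r = 0.88), and *Nqo1* was most like *Abcd2*, a peroxisomal fatty acid transporter (r = 0.841), and *Zwint* (r = 0.824). *Hmox1* was most like *Plek* (r = 0.873), a gene of blood-derived cells, and *Vcam1* (r = 0.868), an adhesion molecule. *Gclm* was most like *Glud1*, glutamate dehydrogenase (r = 0.852), and *Marcksl1-ps4* (r = 0.787), and *Txnrd1* was most like *Akr1c14* (r = 0.825) and *Trabd* (r = 0.812). *Gclc* was most like *Ces1f* (r = 0.758) and *Ephx1*, an epoxide hydrolase (r = 0.72), and *G6pdx* was most like *Cd9* (r = 0.764) and *Tff3* (r = 0.713). *Gpx1* was most like *Timm9* (r = 0.729) and *Yaf2* (r = 0.707). Over these 20 pairs Spearman's rho was 0.507 to 0.94, and r without the 2 mice farthest from the median was 0.557 to 0.946. The likeness was lowest for *Nfe2l2*, at 0.636 with *B630005N14Rik* and 0.628 with *Chmp7*.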

How the data were processed

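Liver RNA of 36 mice was sequenced from total RNA libraries made with a stranded kit and read as 50 bp single reads. The authors deposited estimated counts per gene and mouse, not normalized, of which 3.64% of those above 0 were not whole, and they were rounded here. Per the labels, Cuffdiff, SAMtools, featureCounts and edgeR were used and the build was mm9, and their text speaks of human genes. Of the gene identifiers, 94.9% were found in GENCODE M21 of GRCm38, and 99.7% of those 36341 loci overlapped the same gene there, so GRCm38 coordinates were used. Versions of the authors' tools and the strand setting of counting are not given in the sources used here. A second deposited table of the authors' fitted values per condition was not used.

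Genes were kept by filterByExpr over the 6 groups (13945 of 25285 with a count) and fitted with edgeR 4.0.16 (TMM, robust glmQLFit, 1 coefficient a group, R 4.3.3), with two-sided glmQLFTest and Benjamini-Hochberg adjustment at 0.05. The labels' likelihood ratio test was run as an alternative, as were DESeq2 1.42.0, limma-voom (limma 3.58.1), other scalings, filters, samples and terms, and leaving out each mouse. No sample was dropped or imputed in the reported fit. The steps were tested on simulated counts. Any 2 mice of a group differed by more than sampling noise (90 pairs). Whether the mice came from separate litters is not given, so p-values measure the spread between these mice. That spread was estimated for each gene over all 6 groups together, not over the 2 groups compared. For *Nfe2l2* the SD was 12.1 CPM in fed WT/Y657* mice and 4.12 to 5.21 in the other groups. Its standard error between fed genotypes was 0.078 in the fit of all mice and 0.092 in that of fed libraries alone. Intervals are 95% intervals of the fit.

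The 10 genes and the lists (NRF2 control, other NRF2 targets, NADPH supply, glutathione and peroxide handling, selenoprotein synthesis, heme handling and cell type markers) were chosen with earlier results of these data known. All 10 genes are named, and from each list up to 3 called genes with the smallest p in a comparison. For each of the 10, the 2 genes of highest Pearson r over the 36 mice are also named. The common biological coefficient of variation was 0.181.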

Additional observations from a re-analysis of the deposited data

Results flagged for a closer look

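Of 60 groups of 6 mice (10 genes in 6 groups), 5 held a mouse whose gap to its neighbour was a large part of the range of its group. Chance alone gives this in about 1 of 20 groups. In fasted WT/Y657* mice, mouse 5 was lowest for *Nfe2l2* at 47.4 CPM, with the next mouse at 57.8, and mouse 3 was highest for *Pgd* at 16.6 CPM, with the next at 12.5. In refed WT/Y657* mice, mouse 5 was highest for *Hmox1* at 41.6 CPM, with the next at 22.5. Its Kupffer marker sum of 931 CPM was also the highest of its group. In refed wild-type mice, mouse 4 was lowest for *G6pdx* at 5.26 CPM, with the next at 6.04, and in fasted wild-type mice, mouse 1 was highest for *Gpx1* at 1639 CPM, with the next at 1406. The fasting response of *Nfe2l2* differed between genotypes by a log2 of -0.665 in edgeR's test of the difference (adjusted p = 0.00066).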

How the results depend on the processing

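Of 110 results (10 genes in 11 comparisons), 25 were called, and none of these changed direction under another scaling, filter, test, choice of samples or term or without 1 mouse. Of the 25, 18 were called under all of them. Of the 85 others, 14 were called under some of them and 32 changed direction. Apart from the fits to a series or to the shared stretch, 19 changed direction, none of them with a log2 fold change over 0.0752. The 7 calls that were lost were those of *Nfe2l2* between fed and between fasted genotypes, *Gclm* and *Pgd* on refeeding in wild-type mice, *Nqo1* between refed and fed WT/Y657* mice, and *Txnrd1* on refeeding, which was lost in the series alone (edgeR adjusted p = 0.201 in the lower and 0.0843 in the higher for wild-type mice, and 0.35 in the higher for WT/Y657* mice). For each the cause was not tested.

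The count of the 10 genes called between fed genotypes (1) became 3 with library size alone, 2 with the likelihood ratio test, 2 with DESeq2, 0 with fed libraries alone and 0 with the shared stretch of fed mice alone, where *Nqo1* turned to -0.068. Between fasted genotypes (1) it became 0 with library size alone, 2 with at least 10 counts in every library, and 0 in the lower and 0 in the higher series alone. On refeeding in wild-type mice (3) it became 1 with limma-voom and 1 in either series alone, and for the difference in fasting response (1) it became 2 with DESeq2. The fits restricted to a series or to the shared stretch were chosen after seeing the data and hold fewer mice. Leaving out 1 mouse gave 1 to 3 genes between fed genotypes, 0 to 2 between fasted and 0 to 0 between refed genotypes, 5 to 6 on fasting in wild-type and 3 to 5 in WT/Y657* mice, 1 to 3 and 3 to 3 on refeeding, 4 to 5 and 3 to 5 for refed against fed, 1 to 2 for the difference in fasting response and 0 to 0 for that in refeeding response. The count rose to 3 between fed genotypes without WT/Y657* mouse 2, to 2 without WT/Y657* mouse 1 or wild-type mouse 6, to 2 between fasted genotypes without WT/Y657* mouse 4 (and it was 0 without wild-type mouse 5 or 6 or WT/Y657* mouse 5), to 5 on fasting without fed WT/Y657* mouse 4, and to 2 for the difference in fasting response without fed wild-type mouse 4 or 6 or fasted WT/Y657* mouse 4. On refeeding in wild-type mice it was 1 without refed mouse 2. The *Gclm* call there was lost without fasted mouse 3, 4, 5 or 6 or refed mouse 2, 4, 5 or 6.

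Over all genes, the 330 called between fed genotypes became 756 with library size alone, 516 with the likelihood ratio test, 644 with DESeq2, 207 without a filter and 30 with fed libraries alone. Leaving out 1 fed mouse gave from 68 genes (0.483% of those tested) to 6.35% of those tested, with 102, 210, 124 and 202 genes without wild-type mouse 1, 2, 3 or 5, 593, 105, 68 and 91 without WT/Y657* mouse 1, 4, 5 or 6, and the highest share without WT/Y657* mouse 2. Library size alone moved the median of all genes in that comparison to 0.108 and the share called higher from 51.2% to 88.9%. The share moved from 49.2% to 64.4% between fasted genotypes, from 46.2% to 36% on fasting in WT/Y657* mice, from 54.5% to 68.3% and from 54.7% to 73.1% on refeeding in wild-type and WT/Y657* mice, from 48.1% to 65.7% and from 49.7% to 61.5% for refed against fed, and from 59.5% to 34.2% and from 28.9% to 39.8% for the differences in response. The 4 genes called between refed genotypes became 18 with the likelihood ratio test, 25 with DESeq2 and 12 with the number series as a term. For the difference in fasting response, 607 became 386 without a filter, and for that in refeeding response 287 became 430 with DESeq2, 152 without a filter and 172 with a gene length correction. The share higher between fed genotypes was 37.2% with the gene length correction and 39% with limma-voom. In the lower and higher series alone, 668 and 114 genes were called between fasted genotypes in place of 1821, and in the shared stretch 10 between fed genotypes. No paired analysis was possible because each mouse number marks 1 animal and no number is shared between groups. *G6pdx* and *Nqo1* rested on the fewest counts, and what part of their error came from depth was not tested.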

Other observations

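Among the 10 genes, Pearson r of log2 CPM over the 36 mice, which share groups and libraries, was 0.752 between *Nqo1* and *Srxn1*, 0.65 between *Gclm* and *Txnrd1*, 0.588 between *Hmox1* and *G6pdx*, 0.584 between *Nqo1* and *Gclc*, and -0.647 between *Srxn1* and *Pgd*. For *Nfe2l2* it was at most 0.453, with *Pgd*, and 0.057 with *Nqo1*.

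Markers of the other cell types were summed in the same way. Stellate cell markers ran from 276 to 394 CPM in fed wild-type and 393 to 551 in fed WT/Y657* mice. Between those groups edgeR called 2 of the 6 (2.37% of all genes), both higher in WT/Y657* mice. An unadjusted p under 0.05 was found for 3 of the 6 (2423 of all 13945 genes). In these fed groups, endothelial markers ran from 278 to 372 and 327 to 397 CPM, cholangiocyte markers from 31.2 to 79.6 and 30 to 65.4, erythroid markers from 206 to 286 and 212 to 380, and lymphocyte and neutrophil markers from 0.653 to 6.13 and 1.70 to 18.8, with *Ly6g* at 0 in 5 of the 6 groups of mice. Hepatocyte markers ran from 60303 to 75904 CPM (median 65862) in fed wild-type and 44953 to 75970 (median 56553) in fed WT/Y657* mice. The 3 WT/Y657* mice of the shared stretch were at 44953 to 55236 CPM, below every fed wild-type mouse, and the other 3 at 57871 to 75970. Of the 6 hepatocyte markers, edgeR called 0 between fed genotypes (2.37% of all genes), and 2 had an unadjusted p under 0.05 (2423 of all 13945 genes). The part of these cells in the values of the 10 genes was not tested.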
